A study of Mus musculus with 13 samples.

Results

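C-type lectin receptors are cell-surface proteins with which macrophages sense glycans, glycolipids and ligands from damaged cells. The 8 receptors described here are Clec4e (Mincle), Clec4d (MCL), Clec4n (Dectin-2), Clec4a2 (DCIR), Clec5a (MDL-1), Clec7a (Dectin-1), Clec12a (MICL) and Clec2d (Clr-b). They were chosen by name, with earlier results of these data known. Each is represented by the transcript with the highest total count for its symbol, and they are 8 of 24445 genes with a symbol in the count table. All 8 passed the filter on low counts, which kept 11904 genes.

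RNA-seq was performed on bone marrow-derived macrophages (BMDMs) of female mice, stimulated in vitro with the bacterial cell-wall component lipopolysaccharide (LPS). Control BMDMs carried loxP-flanked alleles of Acly (Acly fl/fl), and Acly-deficient BMDMs (AclyM-KO) carried the same alleles together with Cre recombinase driven from the lysozyme gene Lyz2 (Lyz2-Cre). Acly encodes ATP citrate lyase, which makes cytosolic acetyl-CoA from citrate. The libraries comprised 3 control and 3 AclyM-KO samples after 3 h of LPS, and 4 control and 3 AclyM-KO samples after 24 h. The age of the mice is not given in the sources used here, the labels do not say whether replicates came from separate mice, and p-values then measure only the spread between these samples. Unstimulated BMDMs were not analysed here, so a difference between 24 h and 3 h is a difference between lengths of stimulation and not an effect of LPS. The control mice carried no Cre, so loss of Acly and presence of Cre in the Lyz2 gene cannot be told apart.

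Levels are in CPM, that is, counts divided by the TMM-adjusted size of each library, and group values are mean ± SD. Of the 13 libraries, 12 held 21274102 to 59577343 counts, whereas control 24 h replicate 1 held 34467, so that 1 count there stood for 22.4 CPM. Across genes, that library correlated with the other 24 h libraries at 0.654 to 0.656 and with the 3 h libraries at 0.711 to 0.715. It was left out of the values below, which rest on n = 3 in each group, and receptor calls that change with it are named. Acly was at 106 ± 1.20 CPM in control and 41.8 ± 4.25 CPM in AclyM-KO macrophages at 3 h, and at 110 ± 2.78 and 29.9 ± 0.758 CPM at 24 h. Markers of neutrophils, dendritic cells, lymphocytes and fibroblasts summed to at most 15.3, 2.93, 0.306 and 1.28 CPM in any library, and the neutrophil genes Ly6g and Retnlg were at 0 throughout. In bulk RNA, fewer cells of a type and less RNA per cell cannot be told apart.

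As background, C-type lectin receptors of myeloid cells differ in how they signal. Mincle, MCL and Dectin-2 pair with the adaptor FcRγ (Fcer1g), and MDL-1 pairs with the adaptor DAP12 (Tyrobp), while Dectin-1 carries a signalling motif in its own tail. These receptors recruit the kinase Syk and, through Card9, Bcl10 and Malt1, can activate NF-κB and cytokine genes. DCIR and MICL instead carry an inhibitory motif that recruits phosphatases, and Clr-b is a ligand that is recognised by an inhibitory receptor of natural killer cells.

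All 8 genes lie on mouse chromosome 6 (GRCm38). Clec4a2 (chr6:123106428-123143999), Clec4n (chr6:123229843-123247021) and Clec4d (chr6:123262111-123275265) lie on the plus strand, and Clec4e (chr6:123281789-123289870) follows on the minus strand. Only 6.52 kb separate Clec4d from Clec4e, and 15.1 kb separate Clec4n from Clec4d. In a further group, Clec2d (chr6:129180615-129186534, plus), Clec12a (chr6:129342691-129365303, plus) and Clec7a (chr6:129461591-129472779, minus) are spaced by 156 kb and 96.3 kb. Clec5a (chr6:40574894-40585821, minus) lies apart from both groups. A processed pseudogene, Gm44132, lies on the strand of Clec4a2 within its span and shares 0 exonic bases with it.

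RefSeq (GRCm38.p6) promoter sequences were found for 7 of the 8 genes, with none for Clec4n. The 250 bases before the transcription start are shown for Clec4e, which was higher in AclyM-KO macrophages and rose with time, and for Clec7a and Clec2d, which were lower in AclyM-KO macrophages at 3 h. Capitals mark matches to the searched motifs, each read on both strands.
Clec4e (chr6:123289872-123290121, minus strand): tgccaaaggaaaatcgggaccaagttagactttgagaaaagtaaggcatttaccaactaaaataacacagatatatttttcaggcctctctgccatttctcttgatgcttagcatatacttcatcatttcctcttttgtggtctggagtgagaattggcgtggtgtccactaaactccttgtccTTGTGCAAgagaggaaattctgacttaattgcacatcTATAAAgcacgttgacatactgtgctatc
Clec7a (chr6:129472780-129473029, minus strand): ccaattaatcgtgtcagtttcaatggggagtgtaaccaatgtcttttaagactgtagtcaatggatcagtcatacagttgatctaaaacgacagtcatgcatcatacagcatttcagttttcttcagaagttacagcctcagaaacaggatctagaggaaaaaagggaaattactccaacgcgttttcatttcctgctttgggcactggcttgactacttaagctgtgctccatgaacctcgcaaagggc
Clec2d (chr6:129180365-129180614, plus strand): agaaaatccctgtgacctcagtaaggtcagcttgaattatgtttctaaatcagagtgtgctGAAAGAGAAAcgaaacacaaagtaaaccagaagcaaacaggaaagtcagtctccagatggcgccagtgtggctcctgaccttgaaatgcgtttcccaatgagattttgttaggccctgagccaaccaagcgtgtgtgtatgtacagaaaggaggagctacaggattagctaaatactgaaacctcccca

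The motifs were TATAAA, the κB type (GGG and TTCC with any 3 bases between them), the interferon-response type (GAAA and GAAA with any 2 bases between them), the AP-1 type TGANTCA, the C/EBP type TTGCNNAA and the PU.1 type GAGGAAGT. In Clec4e, TATAAA lay 29 to 24 bases before the start and a C/EBP-type match, on the opposite strand, 66 to 59 bases before it. Of 27025 promoters of that length, 13% held TATAAA and 9.55% the C/EBP type. Clec2d held an interferon-response type match 189 to 180 bases before its start, which 3.04% of promoters held. No letters of the Clec7a window matched any of the 6 motifs. Among promoters not printed, Clec4a2 held TATAAA 161 to 156 bases before the start. Clec5a held it on the opposite strand, 209 to 204 bases before the start. Clec12a held AP-1 and C/EBP-type matches, of which the AP-1 type was found in 6.87% of all promoters. The windows of Clec4a2, Clec5a and Clec12a overlapped 2, 1 and 1 annotated exons. Those of Clec4a2 and Clec12a lay within the gene spans given above. The κB type (4.6% of promoters) and the PU.1 type (2.44%) matched in none of the 7 windows. These matches are descriptions of letters and were not tested as binding sites.

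To compare levels between receptors, CPM were divided by transcript length. In control macrophages at 3 h, Clec4e stood at 327 CPM per kb and Clec4d at 307 CPM per kb, while Clec12a stood at 79.9 and Clec2d at 77.2 CPM per kb. At 24 h, Clec4e reached 1140 CPM per kb in control macrophages, whereas Clec4d stood at 218, Clec12a at 48.6 and Clec2d at 44.2 CPM per kb. Clec4e was thus the receptor with the highest level per length among the 8 at both times. For Clec7a, Clec4a2 and Clec5a the RefSeq transcripts differ in length while their counts were identical, so their levels per length are ranges. They were 44.9 to 144 CPM per kb for Clec7a, so that its place above or below Clec12a and Clec2d is not settled, 9.19 to 24.8 for Clec4a2 and 7.68 to 33.5 for Clec5a in control macrophages at 3 h. Clec4n stood at 29.3 to 31.7 CPM per kb in the same libraries.

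Loss of Acly was first compared after 3 h of LPS. Clec4e, which encodes the receptor for mycobacterial cord factor, was higher in AclyM-KO macrophages, and Clec7a and Clec2d were lower. With edgeR's quasi-likelihood test and Benjamini-Hochberg adjustment over all transcripts, 1 of 8 receptors passed an adjusted p of 0.05 as higher and 2 as lower, against 8.5% and 6.91% of all genes. With the additional threshold of 0.75 on the log2 fold change used in the study, 0 of 8 receptors passed, against 2.01% of all genes. The median log2 fold change of the 8 receptors was -0.11, and that of all genes was -0.01.

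Clec4e stood at 857, 791 and 822 CPM in control replicates 1 to 3 and at 1053, 886 and 1008 CPM in AclyM-KO replicates 1 to 3 at 3 h. Every AclyM-KO library lay above every control library, with AclyM-KO replicate 2 closest to the controls. The log2 fold change was 0.25 (SE 0.06, 95% interval 0.13 to 0.38, adjusted p = 0.003926), which is 1.19-fold. With control 24 h replicate 1 in the fit, the same fold change had an SE of 0.20 and an adjusted p of 0.473.

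Clec7a, the receptor for fungal β-glucan, stood at 92.6, 102 and 111 CPM in control and at 71.0, 81.0 and 79.5 CPM in AclyM-KO macrophages at 3 h. All AclyM-KO libraries lay below all control libraries. Its level was 1.32-fold lower in AclyM-KO macrophages (log2 fold change -0.40, SE 0.07, 95% interval -0.54 to -0.26, adjusted p = 8.185e-05). Clec2d, which encodes the ligand of an inhibitory natural killer cell receptor, stood at 91.4, 94.7 and 95 CPM in control and at 76.5, 76.8 and 80.6 CPM in AclyM-KO macrophages. Here, too, the groups did not overlap, and the level was 1.20-fold lower (log2 fold change -0.26, SE 0.06, adjusted p = 0.001801).

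Clec4n, which encodes a receptor for fungal mannan, showed a wider spread. Control libraries held 36.9, 35.1 and 36.1 CPM and AclyM-KO libraries 32.7, 18.1 and 30.2 CPM at 3 h, so that all 3 lay below the controls but replicate 2 was far below the others. The log2 fold change of -0.43 (SE 0.19, 95% interval -0.86 to 0.01) did not pass the test (adjusted p = 0.1868), and it was -0.19 without that library. AclyM-KO 3 h replicate 2 also held the highest Acly level of its group, 46.2 CPM, and the part of this library in the result was not tested. Counting Clec4n, 3 receptors lay wholly below the controls at 3 h and 1 wholly above, against 14.7% and 15.3% of all genes.

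The other 4 receptors overlapped between genotypes at 3 h and did not pass the test. Clec4d, the partner of Mincle, stood at 405, 398 and 418 CPM in control and 398, 364 and 404 CPM in AclyM-KO macrophages (log2 fold change -0.07, 95% interval -0.17 to 0.04, adjusted p = 0.4604). For the inhibitory receptor Clec12a, control libraries held 201, 198 and 202 CPM and AclyM-KO libraries 174, 199 and 182 CPM, with a log2 fold change of -0.11 (adjusted p = 0.185). Without AclyM-KO 3 h replicate 2, the Clec12a difference was -0.17 and passed (adjusted p = 0.03427). Clec4a2 (24.0, 21.9 and 22.4 against 26.4, 21.3 and 25.6 CPM) and Clec5a (27.8, 28.8 and 29.8 against 25.3, 29.7 and 25.3 CPM) had log2 fold changes of 0.10 (95% interval -0.08 to 0.28) and -0.10 (95% interval -0.27 to 0.06).

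**Figure D1:**
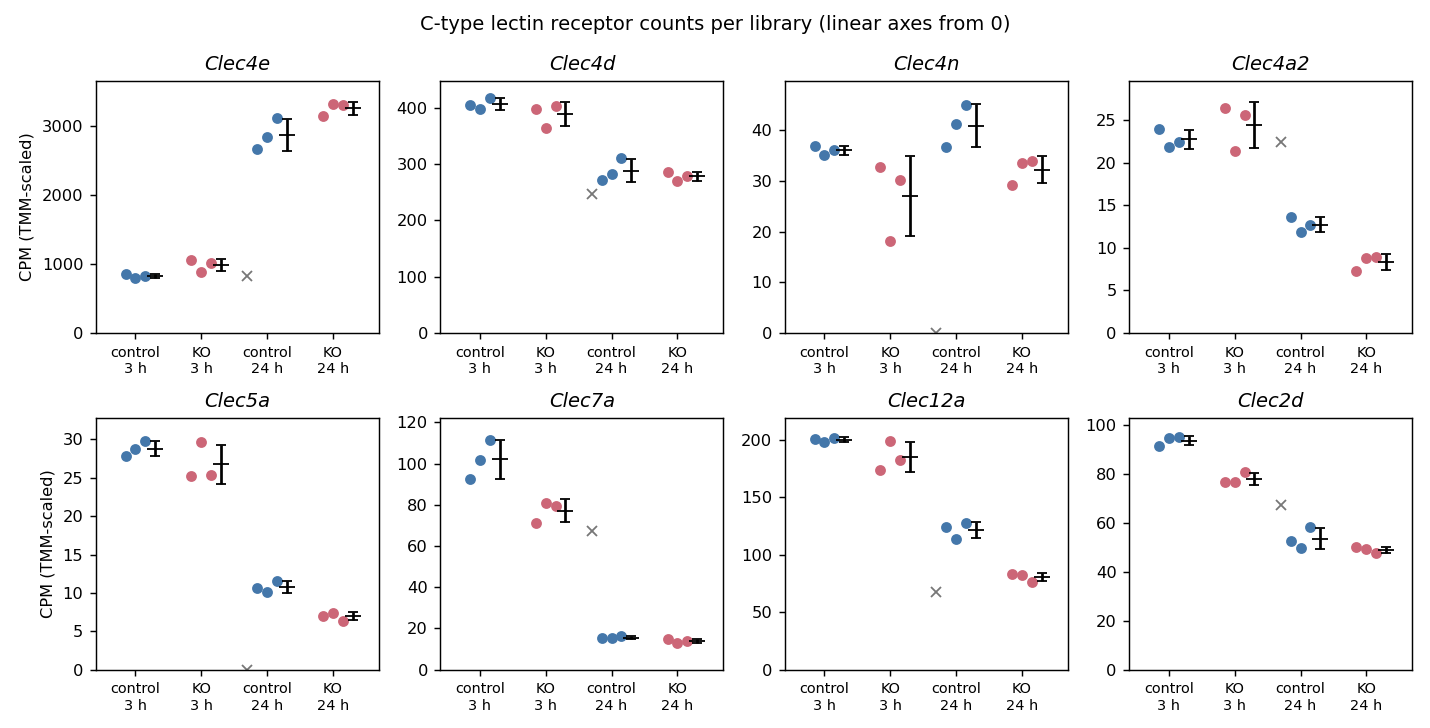
TMM-scaled CPM (linear axes from 0) of the 8 receptors in each library, by genotype and hours of LPS, where points are libraries, horizontal bars with whiskers are mean ± SD (n = 3), and the grey cross is control 24 h replicate 1, which was left out of them. Clec4e rises from 823 to 2867 CPM between 3 h and 24 h in control macrophages while Clec7a falls from 102 to 15.6 CPM, and at 24 h the AclyM-KO points of Clec12a, Clec5a and Clec4a2 lie below all control points on which the means rest.

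After 24 h of LPS, Clec12a, Clec5a and Clec4a2 were lower in AclyM-KO macrophages by similar ratios, and Clec4e was again higher. At the adjusted p of 0.05, 1 of 8 receptors was higher and 3 were lower, against 8.32% and 5.57% of all genes, and 0 of 8 passed the fold threshold as well, against 1.38%. The median log2 fold change of the 8 receptors was -0.26, and that of all genes 0.01. Wholly below the controls lay 5 receptors and wholly above them 1, against 14.9% and 18.2% of all genes.

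Clec12a, the inhibitory receptor MICL, stood at 124, 113 and 128 CPM in control replicates 2 to 4 and at 83.5, 82.1 and 76.6 CPM in AclyM-KO replicates 1 to 3. The groups were well apart, and the level was 1.51-fold lower in AclyM-KO macrophages (log2 fold change -0.59, SE 0.06, 95% interval -0.71 to -0.48, adjusted p = 1.006e-08). Clec4a2, the other receptor with an inhibitory motif, was at 13.7, 11.9 and 12.7 CPM in control and at 7.28, 8.85 and 8.98 CPM in AclyM-KO macrophages. Again no AclyM-KO library reached the controls, and the level was 1.52-fold lower (log2 fold change -0.61, SE 0.10, adjusted p = 5.495e-05). Clec4a2 has close relatives in the same cluster, and how the authors' counting treated reads that they share is not given in the sources used here.

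Clec5a, the activating receptor MDL-1, was lower by a similar ratio. It stood at 10.6, 10.1 and 11.6 CPM in control and at 7.06, 7.44 and 6.41 CPM in AclyM-KO macrophages, without overlap. Its level was 1.56-fold lower in AclyM-KO macrophages (log2 fold change -0.64, SE 0.10, 95% interval -0.84 to -0.45, adjusted p = 1.796e-05).

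Clec4e stood at 2661, 2832 and 3108 CPM in control and at 3148, 3318 and 3297 CPM in AclyM-KO macrophages at 24 h. The AclyM-KO libraries again lay above the controls, yet control replicate 4 came close to AclyM-KO replicate 1. The log2 fold change of 0.18 (SE 0.06, 95% interval 0.06 to 0.30, adjusted p = 0.03635) passed the test in 10 of 20 alternative settings only. It did not pass with all 13 libraries (0.28, adjusted p = 0.4043), with upper-quartile scaling (0.15, adjusted p = 0.07737), or when any one of AclyM-KO 24 h replicates 1 to 3, control 24 h replicates 2 and 3 or control 3 h replicates 1 to 3 was left out, where the adjusted p reached up to 0.2002.

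Of the receptors that differed at 3 h, Clec7a stood at 15.4, 15.2 and 16.3 CPM in control and at 15, 12.8 and 14.1 CPM in AclyM-KO macrophages at 24 h. Its AclyM-KO libraries lay just below the controls, with a log2 fold change of -0.17 (95% interval -0.33 to 0.00, adjusted p = 0.1932). Clec2d stood at 52.6, 49.9 and 58.3 against 49.97, 49.1 and 47.7 CPM, and these groups overlapped (-0.14, adjusted p = 0.121). It passed without AclyM-KO 3 h replicate 2 (-0.15, adjusted p = 0.04837).

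Clec4n held 36.6, 41.2 and 44.9 CPM in control and 29.2, 33.6 and 33.9 CPM in AclyM-KO macrophages, without overlap. The log2 fold change of -0.35 did not pass in the fit over 12 libraries (adjusted p = 0.2508). The SD of Clec4n was 29% of its mean in AclyM-KO macrophages at 3 h, and that spread enters the shared estimate for the gene. Fitted over the 24 h libraries alone, the difference was -0.37 with an adjusted p of 0.0003645, and without AclyM-KO 3 h replicate 2 it was -0.37 with an adjusted p of 7.016e-05. Clec4d (271, 282 and 312 against 286, 271 and 279 CPM) overlapped between genotypes, with a log2 fold change of -0.05 (95% interval -0.16 to 0.06).

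Cell type markers were read beside these differences. The summed CPM of 8 macrophage markers was 6031 to 6333 in control and 4523 to 4627 in AclyM-KO macrophages at 24 h, with Lyz2, the gene that carries Cre and one of the 8, at a log2 fold change of -1.40 (adjusted p = 1.907e-09). Without Lyz2, the other 7 summed to 3630 to 3810 and 3580 to 3770 CPM. Of these 7, Mertk was lower (-0.33, adjusted p = 0.0001489), against 5.57% of all genes. At 3 h the 8 macrophage markers summed to 9984 to 10080 CPM in control and 6915 to 7852 CPM in AclyM-KO macrophages, and without Lyz2 the sums overlapped (4720 to 4860 and 4640 to 4910 CPM). At the adjusted p, 4 of the 8 were lower at 3 h, namely Lyz2 (-0.97), Mertk (-0.31), Fcgr1 (-0.26) and Cd14 (-0.15), against 6.91% of all genes. Adgre1 (0.24) was higher, against 8.5% of all genes. At 24 h, 4 monocyte markers summed to 14.3 to 16.3 CPM in control and 17.9 to 19.9 CPM in AclyM-KO macrophages, and 7 dendritic cell markers to 1.52 to 1.96 and 2.57 to 2.78 CPM. At 3 h the monocyte sums overlapped (5.99 to 8.64 and 6.997 to 8.65 CPM), while the dendritic cell sums were 1.79 to 2.04 and 2.25 to 2.93 CPM. Their part in the receptor differences was not tested.

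**Figure D2:**
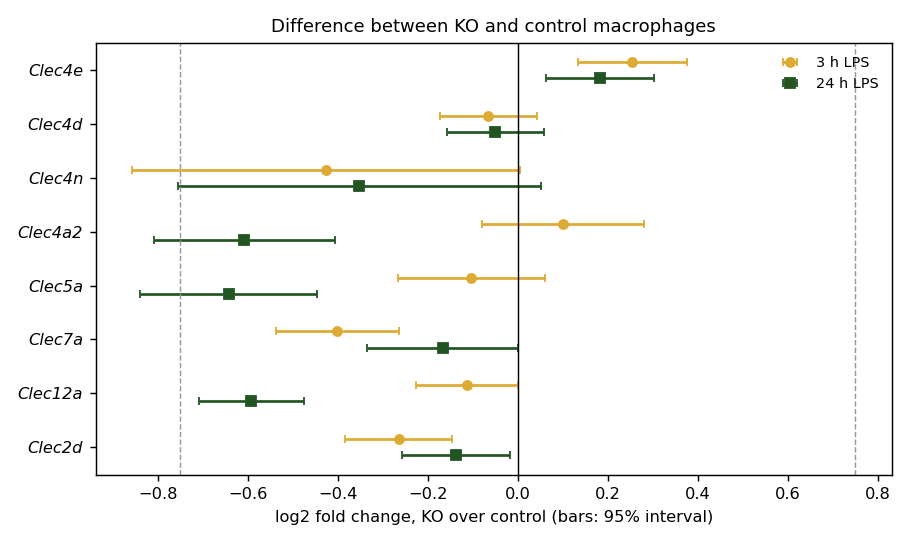
Log2 fold change of AclyM-KO over control macrophages for the 8 receptors after 3 h (circles) and 24 h (squares) of LPS, with bars for 95% intervals and dashed lines at the fold threshold of 0.75. Clec7a lies at -0.40 at 3 h and -0.17 at 24 h, whereas Clec12a, Clec5a and Clec4a2 lie at -0.11, -0.10 and 0.10 at 3 h and at -0.59, -0.64 and -0.61 at 24 h.

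Whether the genotype difference itself changed between 3 h and 24 h was tested as an interaction. It passed for 3 of 8 receptors, all with a lower value at 24 h, and for 0 with a higher value, against 4.66% and 4.86% of all genes. Clec4a2 had the largest interaction of the 8, -0.71 on the log2 scale (SE 0.13, adjusted p = 0.0005996), followed by Clec5a at -0.54 (SE 0.13, adjusted p = 0.005045) and Clec12a at -0.48 (SE 0.08, adjusted p = 0.000131). These are the receptors whose groups overlapped at 3 h and lay apart at 24 h. Clec7a had an interaction of 0.23 (SE 0.11, 95% interval 0.02 to 0.45), which did not pass (adjusted p = 0.1742), so its passing at 3 h and not at 24 h is not shown to be a change. For Clec2d the interaction was 0.13 (adjusted p = 0.3737), for Clec4e -0.07 (adjusted p = 0.6659), for Clec4n 0.07 (adjusted p = 0.9083) and for Clec4d 0.02 (adjusted p = 0.9324).

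Levels at 24 h were then compared with those at 3 h within each genotype. These comparisons use the same libraries as the genotype differences and are therefore not independent of them. In control macrophages Clec4e rose, and Clec7a, Clec5a, Clec4a2 and Clec2d fell. Past both thresholds were 1 of 8 receptors as higher and 4 as lower, against 20.9% and 19.5% of all genes. The adjusted p alone was passed by 1 receptor as higher and 6 as lower, against 38.9% and 36% of all genes. In AclyM-KO macrophages 1 receptor rose and 4 fell past both thresholds, against 21.9% and 20% of all genes, and 1 and 6 passed the adjusted p alone, against 39.4% and 36.3%. The median log2 fold change of the 8 receptors was -0.76 in control and -0.93 in AclyM-KO macrophages, against 0.04 for all genes in each.

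Clec4e rose 3.48-fold in control (log2 fold change 1.80, SE 0.06, adjusted p = 3.349e-19) and 3.31-fold in AclyM-KO macrophages (1.73, SE 0.06, adjusted p = 7.779e-19). Every 24 h library of the fit lay above every 3 h library in both genotypes, whereas control 24 h replicate 1, which was left out, stood at 829 CPM. Its neighbour Clec4d, whose product associates with Mincle, moved the other way, at -0.50 in control (adjusted p = 9.289e-10) and -0.48 in AclyM-KO macrophages (adjusted p = 1.834e-09), short of the fold threshold. Clec4n, the next gene along the chromosome, was at 0.19 in control and 0.26 in AclyM-KO macrophages, with overlapping libraries and without passing (adjusted p = 0.3591 and 0.2302).

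Clec7a fell the most of the 8, by 6.49-fold in control (-2.70, SE 0.07, adjusted p = 3.235e-24) and by 5.51-fold in AclyM-KO macrophages (-2.46, SE 0.08, adjusted p = 8.316e-23). Clec5a fell by 2.65-fold and 3.85-fold, and Clec4a2 by 1.79-fold and 2.92-fold, in control and AclyM-KO macrophages. For Clec12a the log2 fold change was -0.72 in control, which passed the adjusted p (6.882e-13) but not the fold threshold, and -1.20 in AclyM-KO macrophages, which passed both (adjusted p = 3.989e-18). Clec2d was at -0.80 in control, past both thresholds, and at -0.67 in AclyM-KO macrophages, past the adjusted p (1.128e-11) only.

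**Figure D3:**
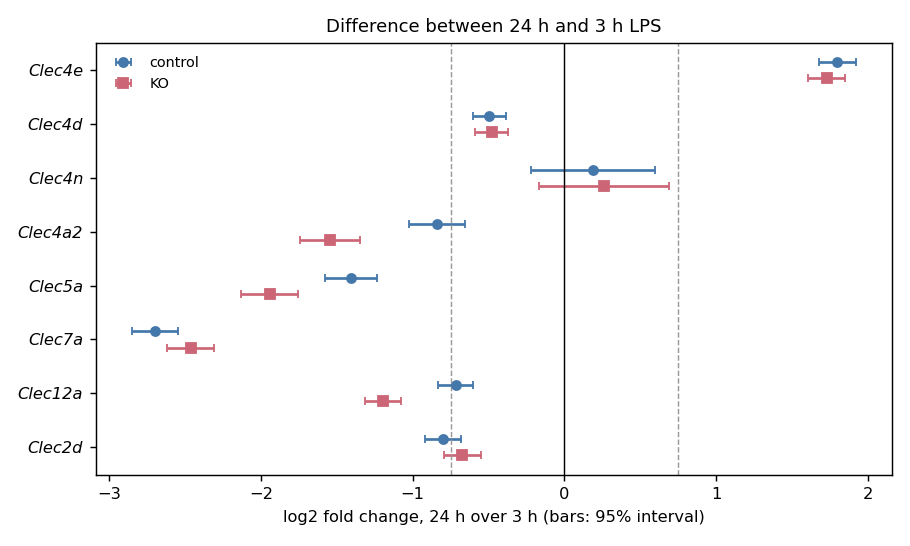
Log2 fold change of 24 h over 3 h of LPS in control (circles) and AclyM-KO (squares) macrophages for the 8 receptors, with bars for 95% intervals and dashed lines at the fold threshold of 0.75. Clec4e lies at 1.80 and 1.73 and Clec7a at -2.70 and -2.46, and for Clec12a, Clec5a and Clec4a2 the AclyM-KO value lies to the left of the control value.

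The signalling partners of these receptors were read from a list of 32 adaptors, kinases, Card9-complex members, phosphatases and NFAT genes, all of which were tested. At 3 h, 2 passed the adjusted p as higher and 6 as lower, against 8.5% and 6.91% of all genes, and at 24 h 3 as higher and 5 as lower, against 8.32% and 5.57%. Their median log2 fold changes were -0.02 and 0.00. Only Fgr, which encodes a Src-family kinase, passed both thresholds at 3 h, and 0 of 32 did at 24 h, against 2.01% and 1.38% of all genes. Higher at the adjusted p were Plcg2 and Nfatc1 at 3 h and Malt1, Src and Traf6 at 24 h, and lower at 24 h were Tyrobp, Ptpn6, Pik3cd, Fgr and Nfatc2. Of these, Nfatc1, Nfatc2 (-0.63 at 24 h) and Pik3cd (-0.28 at 24 h) were named after their values were seen. The 24 h call of Malt1 was lost without control 24 h replicate 2 (adjusted p = 0.06862), and that of Traf6 without AclyM-KO 24 h replicate 3 or control 24 h replicate 3 (adjusted p = 0.08213 and 0.05486). Nfatc1 at 3 h passed in 15 of 20 alternative settings, and was lost with only the 3 h groups and without AclyM-KO 3 h replicate 1 or 3 or control 3 h replicate 2 or 3 (adjusted p up to 0.0841).

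Tyrobp, which encodes the adaptor DAP12 with which MDL-1 pairs, stood at 309 ± 1.60 CPM in control and 279 ± 6.26 CPM in AclyM-KO macrophages at 3 h, and at 185 ± 4.66 and 140 ± 3.47 CPM at 24 h. Its log2 fold change was -0.15 at 3 h (adjusted p = 0.02497) and -0.39 at 24 h (SE 0.05, adjusted p = 4.755e-07). The 3 h value passed in 13 of 20 alternative settings and was lost with all 13 libraries (adjusted p = 0.08385), with no filter, with only the 3 h groups, and without AclyM-KO 3 h replicate 2 or any one control 3 h replicate, where the adjusted p reached 0.08504. The interaction for Tyrobp was -0.24 (adjusted p = 0.01618), and it was lost with all 13 libraries (adjusted p = 0.06984) and without AclyM-KO 24 h replicate 3 or AclyM-KO 3 h replicate 3 (adjusted p = 0.05147 and 0.05269). Tyrobp and its receptor Clec5a were thus both lower in AclyM-KO macrophages at 24 h.

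Fcer1g, the adaptor of Mincle, MCL and Dectin-2, was at -0.08 at 3 h (adjusted p = 0.3456) and at -0.11 at 24 h (adjusted p = 0.1967). Its 24 h difference passed in 1 of 20 alternative settings, with only the 24 h groups fitted (-0.12, adjusted p = 0.03826). Syk, the kinase downstream of both adaptors, was at -0.04 and 0.10, and Card9 at 0.12 and 0.06. In the fit over 12 libraries, none of Fcer1g, Syk and Card9 passed. Fgr stood at 5.63 ± 0.305 CPM in control and 2.55 ± 0.824 CPM in AclyM-KO macrophages at 3 h, a log2 fold change of -1.16 (SE 0.20, adjusted p = 0.0001499). At 24 h its difference was -0.72 (adjusted p = 0.008661), and it did not pass without AclyM-KO 24 h replicate 1 or 3 (adjusted p = 0.07606 and 0.06548). Plcg2, a phospholipase downstream of Syk, was higher at 3 h (0.26, adjusted p = 0.003871), and the interaction passed as lower for Plcg2 (-0.35), for the phosphatase gene Ptpn6 (-0.32) and for Tyrobp. As higher, it passed for Traf6 (0.42), the kinase gene Src (0.40), the guanine nucleotide exchange factor Vav1 (0.27) and Malt1 (0.24). Of the 32 signalling genes, these are 3 as lower and 4 as higher, against 4.66% and 4.86% of all genes. With all 13 libraries, the interactions of Ptpn6 (adjusted p = 0.06734), Vav1 (0.06838) and Malt1 (0.1093) did not pass. That of Malt1 passed in 3 of 19 alternative settings, and it was lost on leaving out any library except AclyM-KO 3 h replicate 1 and control 24 h replicate 4. That of Vav1 passed in 11 of 19, and it was lost without AclyM-KO 24 h replicate 3, AclyM-KO 3 h replicate 2 or 3, control 24 h replicate 3 or control 3 h replicate 1 or 2, with an adjusted p of up to 0.1045.

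**Figure D4:**
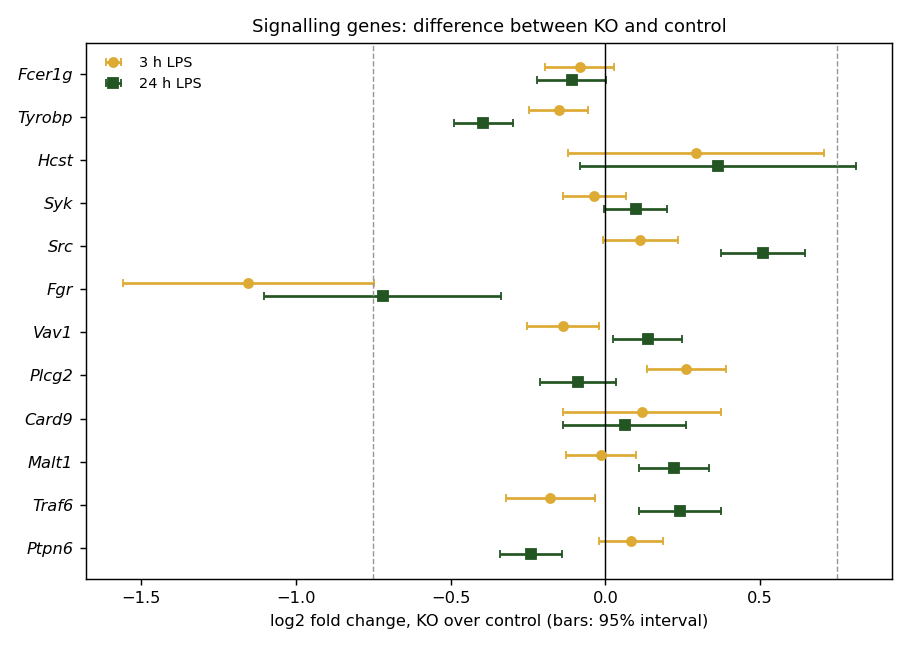
Log2 fold change of AclyM-KO over control macrophages for 12 signalling genes after 3 h (circles) and 24 h (squares) of LPS, with bars for 95% intervals and dashed lines at the fold threshold of 0.75. Tyrobp lies at -0.15 and -0.39 and Fgr at -1.16 and -0.72, whereas the intervals of Fcer1g, Syk and Card9 include 0 at both times.

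Among 33 other lectin receptors, 17 had enough counts to be tested. At 3 h, 1 was higher and 2 were lower at the adjusted p, against 8.5% and 6.91% of all genes. At 24 h 4 were higher and 5 lower, against 8.32% and 5.57%. Past both thresholds were 0 at either time, against 2.01% and 1.38%. Those lower at 24 h included Clec4a1 (-0.40, adjusted p = 0.01194) and Clec4a3 (-0.36, adjusted p = 0.01157), close relatives of Clec4a2, which were named after their values were seen. Clec4a1 also was lower at 3 h (-0.42, adjusted p = 0.009947), where Clec4a2 did not pass. The others lower at 24 h were Klra2, Clec2i and Cd93, those higher were Cd69, Ly75, Colec12 and Clec2g, and at 3 h Colec12 was higher and Clec10a lower, all but Cd93 named after their values were seen. Colec12 at 3 h passed in 5 of 20 alternative settings (adjusted p = 0.05312 with all 13 libraries), and at 24 h Clec2g passed in 8, Cd69 in 15, Ly75 in 16, Clec4a3 in 18 and Clec4a1 and Klra2 in 19. Cd93 was the only one of the 17 with an interaction that passed (-0.23, adjusted p = 0.02685), against 4.66% of all genes as lower and 4.86% as higher. The interaction of Cd93 passed in 13 of 19 alternative settings. It was lost with all 13 libraries (adjusted p = 0.1866) and without AclyM-KO 24 h replicate 2 or 3, control 24 h replicate 3 or control 3 h replicate 3 (adjusted p up to 0.07191). Mrc1, the mannose receptor, was at 0.06 and 0.18 without passing, and at 24 h it was lower than at 3 h in control macrophages, with a log2 fold change of -5.09. Of the binding partners, Vim, which Dectin-1 has been described to bind, was higher at 3 h (0.31, adjusted p = 8.185e-05) with an interaction of -0.41, and Klrb1b, the receptor for Clr-b, had too few counts to be tested.

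For each receptor, the genes whose profile over the 12 libraries was most like it were found among 6301 genes with a mean of at least 10 CPM, by the root mean square difference of centred log2 CPM. Closest to Clec4e were Cln8 (0.07) and Uvrag (0.08), and closest to Clec4d were Rab11a and Smu1 (both 0.04). For Clec4n the closest were its cluster neighbour Clec4a1 (0.13) and Lfng (0.14), and for Clec4a2 Cers5 and Actb (both 0.13). Clec7a was nearest to Tnip3 (0.14) and Rin2 (0.15), Clec2d to Twf1 and Ddx46 (both 0.06), and Clec5a to the row of Mir1950 (0.01) and to Dock1 (0.13). The rows of Mir1950 and Clec5a held nearly the same counts and are not separate measurements. Clec12a was nearest to Cfp (0.10) and to Tyrobp (0.11). These likenesses are descriptions over libraries of 4 groups, and they hold the difference between 3 h and 24 h. The profile of Clec4n, which had no passing difference with time, spans 1.29 on the log2 scale, with AclyM-KO 3 h replicate 2 as its lowest library.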

How the data were processed

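Strand-specific mRNA libraries were aligned by the authors to mm10, and CASAVA 1.8.2 and STAR 2.5.2b are named in the submitters' processing notes. The deposited table holds raw counts per RefSeq transcript made with HOMER, without normalization. The strand and isoform settings are not given in the sources used here. A RefSeq gene table gave a symbol for 35440 of 35745 rows, and GENCODE raised this to 35628. The other 117 stayed in the library sizes. A symbol was represented by its row with the highest total.

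Counts were analysed in R 4.3.3 with edgeR 4.0.16 (TMM, filterByExpr, robust quasi-likelihood test, Benjamini-Hochberg adjustment over 19621 transcripts). Genes counted as changed needed an adjusted p under 0.05 and a log2 fold change beyond 0.75, and interactions the adjusted p only. Intervals are 95% intervals from the fit. The fit held 12 of 13 libraries, since control 24 h replicate 1 was too shallow. Alternatives included all 13 libraries, DESeq2 1.42.0, RLE and upper-quartile scaling, no filter, glmTreat, a replicate block and leaving out each library. The test was run on simulated counts for the genotype difference at 3 h only, not for the interaction or the time comparisons, and the outcome is not reported here. Replicates differed by more than sampling noise (chi-square per degree of freedom 2.42 to 11.3).

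The receptors, the gene lists and the motifs were chosen with earlier results of these data known. Named genes were the 8 receptors, listed genes that passed both thresholds in a genotype effect or passed in the interaction, Fcer1g, Tyrobp, Syk, Card9, Mrc1 and Acly, and the 2 genes most like each receptor. Genes outside this rule were named after their values were seen, among them Lyz2, Mertk, Fcgr1, Cd14, Adgre1, Ly6g, Retnlg, Klrb1b and, in a plot, Hcst.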

Additional observations from a re-analysis of the deposited data

Results flagged for a closer look

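Among the 4 control libraries at 24 h, replicate 1 stood apart from the other 3 by Dixon's test for Clec4a2 (22.4 CPM, from 1 count), Clec5a (0 CPM) and Clec7a (67.2 CPM, from 3 counts). Chance marks about 1 in 20 groups of values with equal spread in this way, and that rate does not apply here. In replicate 1, 1 count stands for 22.4 CPM, so any count of these 3 receptors would have been marked. The 8 receptors together had 58 counts in that library. For Clec5a, the limit that a count of 0 allows, 3 counts, is 67.2 CPM, which lies above every level of Clec5a in the other libraries, and the exact Poisson 95% interval for Clec4a2 is 0.567 to 125 CPM. For Clec7a the interval is 13.9 to 196 CPM, which includes the 15.2 CPM of control replicate 3. Clec4e had 37 counts there, or 829 CPM with an interval of 584 to 1140 CPM, against 2661 to 3108 CPM in the other control libraries at 24 h and 791 to 857 CPM in those at 3 h. These intervals cover counting error only.

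The genotype difference changed between 3 h and 24 h for Clec12a (-0.48 on the log2 scale), Clec5a (-0.54) and Clec4a2 (-0.71), by the interaction test of edgeR with adjusted p = 0.000131, 0.005045 and 0.0005996. In each of the 3, the 3 AclyM-KO libraries at 24 h lay below the 3 control libraries of the fit, and at 3 h the groups overlapped. All 3 interactions passed in each of 19 alternative settings, with adjusted p up to 0.001791 for Clec12a, 0.04436 for Clec5a and 0.005551 for Clec4a2.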

How the results depend on the processing

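Clec7a and Clec2d at 3 h and Clec12a, Clec5a and Clec4a2 at 24 h passed the adjusted p in all 20 alternatives. Over the alternatives, the log2 fold change ranged from -0.46 to -0.33 for Clec7a, from -0.29 to -0.25 for Clec2d, from -0.64 to -0.55 for Clec12a, from -0.69 to -0.55 for Clec5a and from -0.66 to -0.51 for Clec4a2. Receptors higher at the adjusted p (1 as reported) came to 0 at 3 h with all 13 libraries and to 0 at 24 h with all 13 libraries or with upper-quartile scaling, and to 0 to 1 at 24 h on leaving out 1 library. Receptors lower at 24 h (3 as reported) came to 3 to 5 on leaving out 1 library, with 5 without AclyM-KO 3 h replicate 2. Receptors lower past both thresholds between 24 h and 3 h in control macrophages (4 as reported) came to 2 with upper-quartile scaling, 2 with a log2 fold change beyond 1 and 2 with glmTreat, the last 2 being stricter by construction. Receptors higher at the adjusted p in that comparison came to 2 with only the 2 groups compared and to 1 to 2 on leaving out 1 library, the added one being Clec4n (0.20, adjusted p = 0.006809 with only the 2 groups). Where no construction explains it, the cause was not tested. Over all genes, 239 passed both thresholds at 3 h and 164 at 24 h, against 144 and 70 with a fold beyond 1 and 35 and 4 with glmTreat.

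Directions turned only for differences that did not pass. With the replicate block, Card9 at 24 h was at -0.029 (adjusted p = 0.9142), and the block changed the call of none of the 8 receptors. Only control 24 h has a replicate 4, so the block gave that library a term of its own. It thereby dropped out of the differences in that setting. Among other genes the block ended the calls of Cd69, Clec2g, Klra2 and Ly75 at 24 h, of Colec12 at 3 h and of the interactions of Cd93 and Vav1 (adjusted p 0.05983 and 0.07071). Whether the lost library or the block ended them was not tested. Residual correlations of same-numbered libraries were -0.00835 to 0.0863. They were not compared with those of differently numbered libraries, so they cannot tell whether the numbers pair the samples. The interaction of Clec4d was -0.0106 with no filter, and that of Clec4e was 0.0276 with all 13 libraries. On leaving out 1 library, the interaction ranged from -0.0456 to 0.0759 for Clec4d from -0.172 to 0.22 for Clec4n, from -0.188 to 0.00951 for Card9 and from -0.122 to 0.0118 for Fcer1g, and Clec4d at 24 h from -0.0921 to 0.0101. At 3 h, Fcer1g ranged from -0.132 to 0.00151, Malt1 from -0.0705 to 0.047 and Syk from -0.0925 to 0.0287. Of the values of single genes under the alternatives, 1865 kept direction and call, 102 lost the call, 13 gained it and 17 turned. The 3 libraries per group limit the precision, most of all for Clec4n among the receptors, with an SE of 0.19 at 3 h, 0.18 at 24 h and 0.26 for the interaction.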

Other observations

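The row of Mir1950, a microRNA gene, held 2 to 21 counts more than the row of Clec5a in each of the 12 libraries, where Clec5a had 167 to 758 counts. The deposited counts of Clec5a and Mir1950 therefore are not separate measurements. Why the 2 rows hold nearly the same counts was not tested.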
